A study of Mus musculus with 6 samples.

Results

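This account covers the genes of the mitochondrial protein import machinery in metastasis-initiating cells (MICs) and non-MICs sorted from mouse mammary tumors. The members were every protein-coding gene whose symbol begins with Timm or Tomm followed by a digit, together with Pam16, Dnajc15, Dnajc19, Grpel1, Grpel2, Samm50, Mtx1, Mtx2, Chchd4, Gfer, Pmpca and Pmpcb. The annotation holds 37 such genes, on 18 chromosomes, and 36 of them were among the 22310 genes of the table. The one that was not is Tomm20l, a relative of the receptor gene Tomm20. Symbols were given by GENCODE vM21 on GRCm38.

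The cells were primary tumor cells of MMTV-PyMT mice, in which the mammary tumor virus promoter drives the polyoma middle T oncogene in the mammary epithelium, and the genotype is labelled WT for both groups. They were grown overnight in DMEM/F12 with serum, insulin and EGF and were sorted on the following day. MICs were the Lin-CD24+CD90+ cells and non-MICs the Lin-CD24+CD90- cells of the same culture model, where Lin stands for markers of blood and endothelial cells. There were 3 libraries of each population, numbered 1 to 3 in both. The paper's legend for this comparison counts 3 independent experiments or tumors. Neither the labels nor the methods say how many animals each library holds, so that p-values measure only the spread between these libraries.

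Most mitochondrial proteins are made in the cytosol and must be brought in across the outer and inner membranes. The TOM complex is the common entry gate, the SAM complex builds barrel proteins into the outer membrane, the MIA relay folds proteins of the intermembrane space by forming disulfide bonds, and the small TIM proteins are chaperones that carry hydrophobic proteins through that space. The TIM22 complex inserts metabolite carriers into the inner membrane, whereas the TIM23 complex and its PAM motor pull proteins with a presequence into the matrix, a step that uses the membrane potential and ATP, and the MPP protease then removes the presequence. The comparison asks whether transcripts of this machinery differ between the populations, in a study that compared their mitochondrial activity.

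Values are read counts scaled by the authors to one total per library, referred to as scaled read counts. Whole reads could be recovered from them, and the libraries hold between 31467281 and 51759769 reads. The counting error of the reads was at or above the spread between libraries in at least 1 population for 3 members, Timm8a2, Tomm6 and Timm8a1, and close to it for Timm10b in non-MICs (0.11 against an SD of 0.12 on the log2 scale). Most luminal markers were abundant in every library, with Krt8 between 81339 and 293659. Elf5, however, was at 14.5 in MIC replicate 2 and at 28.5 in non-MIC replicate 2. Of 7 luminal markers, 0 were higher in MICs in all 3 pairs, compared to 12.5% of all genes. Lower in all 3 were 2, Elf5 and Epcam, compared to 18.8%. Epcam was nearly equal in pair 3, at 23726 in MICs and 23771 in non-MICs. The pair differences of the summed luminal level were -0.24, -0.34 and 0.07 on the log2 scale. Of the lineages that the gate removes, 4 of 6 immune markers were in the table, with a summed level between 173 and 344 in MICs and between 178 and 363 in non-MICs, mostly Cd68 and Csf1r, while Ptprc (CD45) was between 0 and 10. The summed level of 5 endothelial markers was between 31.8 and 51.8 in MICs and between 15.9 and 44.2 in non-MICs, and that of the 2 erythroid markers in the table was at most 6.67. Thy1, which encodes CD90, was at 1509, 301 and 755 in MICs 1, 2 and 3 and at 16.9, 21.1 and 12.6 in the non-MICs. Most basal markers moved with the gate. Of 7, 5 were higher in MICs in all 3 pairs, compared to 12.5% of all genes. The others, Krt14 and Krt17, were lower in MICs in pair 2, by -0.90 and -0.12 on the log2 scale. The summed level of the 7 basal markers ranged from 24218 to 424165 in MICs and from 24071 to 143651 in non-MICs. Its pair differences were 1.56, 0.01 and 0.61 on the log2 scale. Of 7 fibroblast markers, 4 were higher in MICs in all 3 pairs, compared to 12.5% of all genes. The others were lower in MICs in pair 1, Fap by -1.86, Pdgfrb by -0.15 and Col1a1 by -0.19 on the log2 scale. Col1a1 was also lower in pair 2, by -0.62. The summed fibroblast level was 1986, 640 and 1812 in MICs 1, 2 and 3 and 924, 699 and 558 in the non-MICs. MICs thus had the higher sum in pairs 1 and 3 and the lower one in pair 2. The part of luminal cells, basal cells or fibroblasts in the results on import genes was not tested. In bulk libraries of this kind, fewer cells of a type and less RNA per cell cannot be told apart.

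No import gene passed the test at an adjusted p under 0.05. In pairs 1 and 2, though not in pair 3, many transcripts of the machinery had the higher value in MICs. The difference between the MIC and the non-MIC library of the same number, as log2(scaled read count + 1), had a median over the 36 members of 0.32 in pair 1, 0.53 in pair 2 and -0.06 in pair 3. Over all 22310 genes the medians were -0.02, 0.04 and -0.05. In pair 1, 29 of 36 members were higher in MICs, in pair 2, 24, and in pair 3, 11. Over all 22310 genes, 10091, 11943 and 7986 were higher in MICs in pairs 1, 2 and 3. Both of pairs 1 and 2 had the higher value in MICs for 21 of 36 members, compared to 28.6% of all genes, and the lower value for 4 of 36, compared to 26.8%. Of the 21 members, 15 were lower in MICs in pair 3. Of the 6387 genes of the table higher in pairs 1 and 2, this held for 3470. Higher in all 3 pairs were 6 of 36 members (Timm8a1, Timm10, Timm17a, Timm21, Timm23 and Tomm5), compared to 12.5% of all genes, and lower in all 3 were Tomm34, Timm44 and Pmpca, 3 of 36, compared to 18.8%. The first of these shares is near the background.

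**Figure D1:**
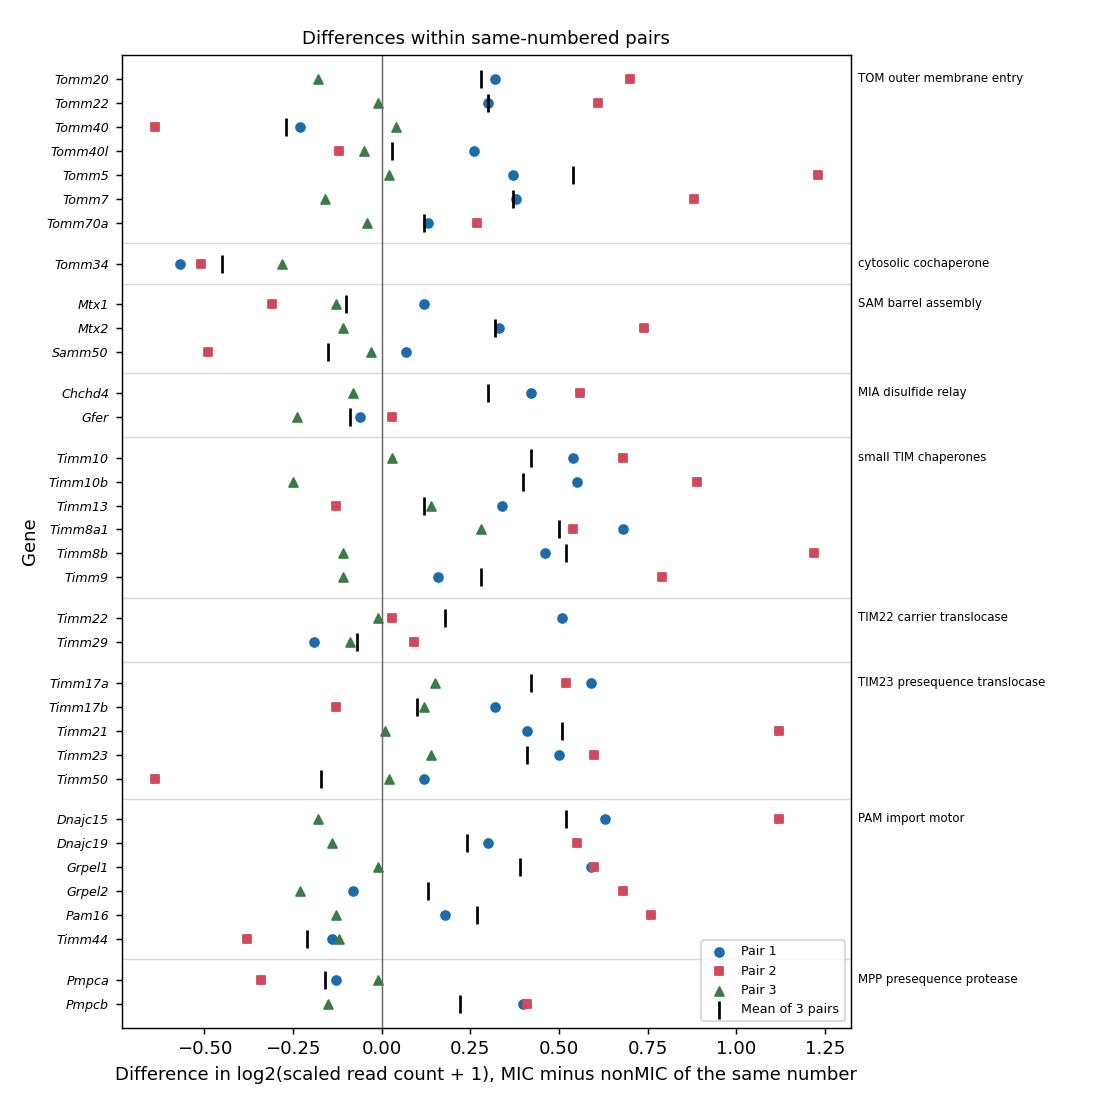
Difference in log2(scaled read count + 1) between the MIC and the non-MIC library of the same number, for 34 import genes grouped by machine; colored points are the 3 pairs and black bars their mean. Pairs 1 and 2 spread widely, mostly to the right of 0, and every point of pair 3 lies within 0.3 of 0.

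In limma without a block, with Benjamini-Hochberg adjustment over all genes, the smallest adjusted p of a member was 1 and no gene of the table was called (0%). Unadjusted p-values under 0.05 were seen for 0 of 36 members (0 in edgeR and 1 in DESeq2), compared to 0.708% of all genes higher and 0.735% lower in MICs. Because libraries of the same number varied together, the number was also used as a block. With this block, 8 of 36 members were higher in MICs at an unadjusted p under 0.05, compared to 5.24% of all genes, and 1 of 36, Tomm34, was lower, compared to 5.97%. None of them passed adjustment, the smallest adjusted p being 0.418, in a fit that called 0.13% of all genes. The edgeR quasi-likelihood test with the block, on the recovered reads, gave 7 members higher (background 5.89%) and 1 lower (background 5.85%) at an unadjusted p under 0.05, and its smallest adjusted p was 0.162, in a fit that called 1.41% of all genes. These counts rested on pairs 1 and 2. In the blocked limma fit, leaving out pair 2 left 0 of 36 members at an unadjusted p under 0.05 in either direction, compared to 9.85% of all genes, and leaving out pair 1 left 1 of 36, compared to 3.7%, which is near that background. Leaving out pair 3 gave 9 of 36, 8 higher and 1 lower, compared to 10.2% of all genes.

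The median log2 fold change of the members was 0.23, compared to -0.04 over all genes. It was 0.10 without MIC replicate 2 and 0.46 without MIC replicate 3. Each of the 9 members with the smaller p-values with the block is described with its machine.

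Promoter sequences are shown for 4 of these 9 genes, 3 that were higher in MICs and the only one that was lower. They were picked because their windows hold the ETS core, which the window of Grpel1, not shown, holds as well. This core is the motif CCGGAAG, bound by ETS family factors such as GABP (NRF-2). GABP is known for its sites in promoters of mitochondrial genes. The windows are those of RefSeq on GRCm38.p6 and run from 250 bases before to 50 bases after the annotated start, 5′ to 3′ on the strand of the gene. Capitals mark the ETS core, the NRF-1 motif (GCGCANGCG) and the E-box (CACGTG) on either strand.
Timm8b, chr9:50603651-50603950, plus strand: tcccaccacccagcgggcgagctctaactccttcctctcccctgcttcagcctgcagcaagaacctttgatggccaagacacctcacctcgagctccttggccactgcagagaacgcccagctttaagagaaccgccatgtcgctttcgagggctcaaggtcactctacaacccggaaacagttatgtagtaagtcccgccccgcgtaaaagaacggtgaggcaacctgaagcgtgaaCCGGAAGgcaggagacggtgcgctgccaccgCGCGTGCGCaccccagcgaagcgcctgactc
Timm10, chr2:84826771-84827070, plus strand: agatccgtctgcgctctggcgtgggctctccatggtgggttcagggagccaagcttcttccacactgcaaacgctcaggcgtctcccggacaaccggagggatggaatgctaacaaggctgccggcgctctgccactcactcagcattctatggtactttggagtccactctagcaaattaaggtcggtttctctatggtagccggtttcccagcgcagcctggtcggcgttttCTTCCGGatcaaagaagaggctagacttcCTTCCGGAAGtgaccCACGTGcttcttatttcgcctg
Timm23, chr14:32201842-32202141, minus strand: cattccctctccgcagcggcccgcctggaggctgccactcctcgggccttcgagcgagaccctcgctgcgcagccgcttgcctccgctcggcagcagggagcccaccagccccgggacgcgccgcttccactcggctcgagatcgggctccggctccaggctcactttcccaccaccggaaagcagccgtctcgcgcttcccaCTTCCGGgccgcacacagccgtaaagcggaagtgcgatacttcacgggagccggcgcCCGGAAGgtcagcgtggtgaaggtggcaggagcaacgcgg
Tomm34, chr2:164071053-164071352, minus strand: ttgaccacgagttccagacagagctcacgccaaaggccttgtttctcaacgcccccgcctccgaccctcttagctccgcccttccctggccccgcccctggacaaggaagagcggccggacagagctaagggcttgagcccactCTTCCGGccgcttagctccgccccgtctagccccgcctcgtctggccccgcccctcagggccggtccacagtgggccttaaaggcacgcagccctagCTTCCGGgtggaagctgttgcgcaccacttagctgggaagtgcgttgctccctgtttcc

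In Timm10, the longest run of capitals is a pair of ETS cores on opposite strands that overlap, followed by an E-box, and Timm8b has both an ETS core and the NRF-1 motif. A window was found for 32 of the 36 members, and the motifs were chosen after the expression values were seen. A gene with several windows was counted if any of them held the motif. Tomm34 has another window, not shown, that overlaps the one printed and also holds an ETS core. The ETS core was in the windows of 14 of 32 members (43.8%), compared to 17.5% of 11996 protein-coding genes of the table and 9.93% of all 27025 genes with a window. It was in 5 of the 8 members with a window among the 9 above, namely Grpel1, Timm8b, Timm10, Timm23 and Tomm34, and thus in genes that were higher and in the one that was lower. The windows of Timm17a, Tomm5 and Dnajc15, which were higher in MICs, held none of the motifs searched for. The NRF-1 motif was in 5 of 32 members (15.6%), compared to 13.3% of the protein-coding genes of the table and 7.03% of all genes with a window, and the E-box in 4 of 32 (12.5%), compared to 10.9% and 8.09%. A match of letters is a description and does not show binding.

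The entry gate was uneven. Tomm40, the barrel that forms the pore of the TOM complex, was at 4508, 3186 and 3457 in MICs and at 5282, 4948 and 3365 in non-MICs of the same numbers. MICs thus had less in pairs 1 and 2 and about as much in pair 3. The difference was -0.27 ± 0.25 (SE) on the log2 scale, with an unadjusted limma p of 0.301, which was 0.139 in the blocked fit. Its relative Tomm40l was at 1092, 1067 and 1004 in MICs and at 909, 1163 and 1039 in non-MICs, so that the groups overlapped, with a difference of 0.03 ± 0.21 (SE). Of the exon bases of Tomm40l, 64% overlap Nr1i3 on the opposite strand, and the sources used here do not say whether reads were counted by strand. Scaled to transcript length and library depth (RPKM, the mean over the 6 libraries), the level of Tomm40, at 71.6, was above that of Tomm40l, at 6.34.

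The small TOM subunits and the receptors went the other way in pairs 1 and 2. Tomm5, a small subunit that stabilizes the pore, was at 1337, 2277 and 807 in MICs and at 1034, 969 and 796 in non-MICs. MIC replicate 2 had the highest level, and in pair 3 the 2 libraries were nearly equal. The difference was 0.54 ± 0.38 (SE) on the log2 scale, which was 0.16 without MIC replicate 2 and 0.91 without MIC replicate 3, with an unadjusted p of 0.19, of 0.0273 with the block and of 0.00604 in edgeR with the block (adjusted p = 0.162). The receptor Tomm20, which recognizes presequences, was at 3620, 5547 and 1998 in MICs and at 2890, 3417 and 2260 in non-MICs, with a difference of 0.28 ± 0.37 (SE) that changed sign without MIC replicate 2. Tomm7, another small subunit, differed by 0.37, Tomm22, the central receptor, by 0.30, and Tomm70a, the receptor for carrier proteins, by 0.12, and for all 3 of them MICs exceeded non-MICs in pairs 1 and 2 only. Tomm6 was represented by 1 to 7 reads in each library and is given no fold change. Its exons share 76% of their bases with Gm21981 on the same strand, a gene not in the table.

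Tomm34, a cytosolic cochaperone that binds Hsp70 and Hsp90 and not a part of the pore, was the member most clearly lower in MICs. It was at 1235, 1667 and 1473 in MICs and at 1828, 2372 and 1787 in non-MICs. Every MIC library was below every non-MIC library, which was so for 1 of 36 members and for 3.55% of all genes. The difference was -0.45 ± 0.22 (SE) on the log2 scale (0.732-fold), with pair differences of -0.57, -0.51 and -0.28. Its unadjusted p was 0.0792, and 0.016 with the block (adjusted p = 0.418).

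**Figure D2:**
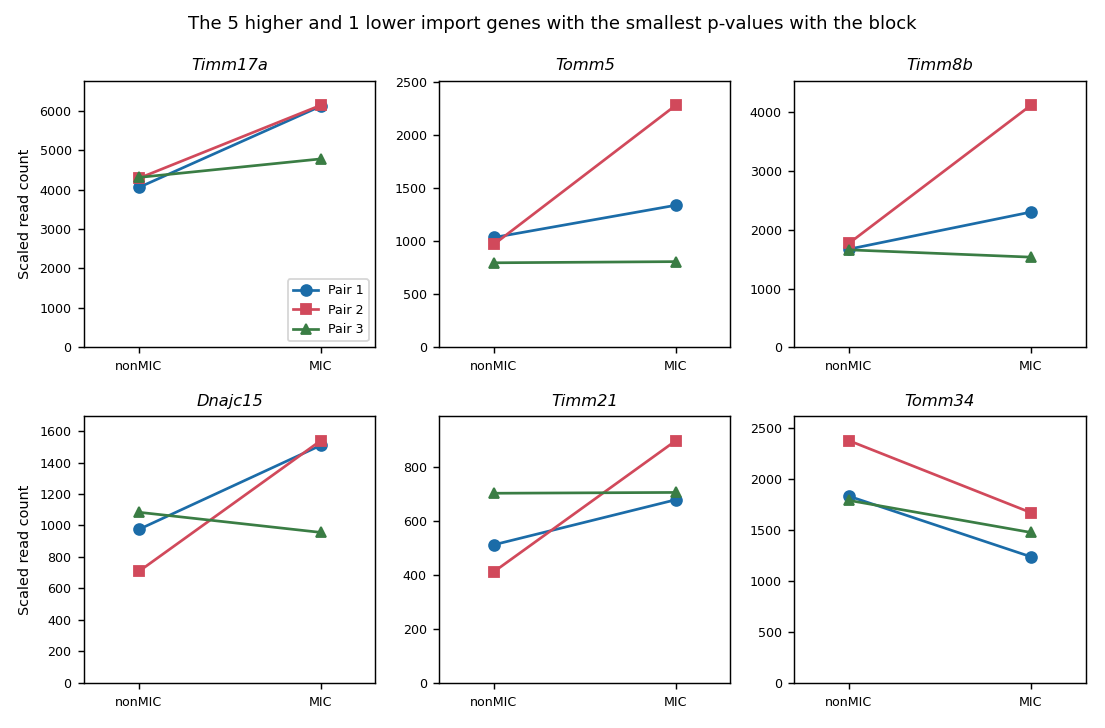
Scaled read counts of the 5 import genes higher in MICs and the 1 lower with the smallest p-values in the blocked fit; each line joins the non-MIC and the MIC library of the same number, and each axis starts at 0. The lines of pair 3 are nearly flat for Tomm5 and Timm21 and slope down for Timm8b and Dnajc15, and all 3 lines of Tomm34 slope down.

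The SAM complex showed no common direction. Samm50, its barrel subunit, was at 4357, 3038 and 4008 in MICs and at 4153, 4280 and 4106 in non-MICs. MIC replicate 2 stood well below the other libraries, and the difference of -0.15 ± 0.20 (SE) was 0.00 without that library. The metaxin genes, whose products face the cytosol on the same complex, differed by 0.32 ± 0.24 (SE) for Mtx2 and by -0.10 ± 0.21 (SE) for Mtx1, and the groups overlapped for both.

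Of the disulfide relay, Chchd4, the oxidoreductase that introduces disulfide bonds into incoming proteins, was at 1708, 2223 and 1170 in MICs and at 1279, 1510 and 1234 in non-MICs. It was higher in MICs in pairs 1 and 2 and slightly lower in pair 3, with a difference of 0.30 ± 0.27 (SE). Gfer, the sulfhydryl oxidase that reoxidizes Chchd4, was at 823, 1248 and 876 in MICs and at 855, 1223 and 1037 in non-MICs, with a difference of -0.09 ± 0.26 (SE). The groups of Gfer overlapped, and its pair differences were -0.06, 0.03 and -0.24.

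The small TIM chaperones had one of the highest medians among the machines, 0.40 on the log2 scale over 7 genes, and 6 of the 7 had a log2 fold change above 0, the exception being Timm8a2, which was near the floor. Timm8b, a partner of Timm13 in a chaperone of the intermembrane space, was at 2303, 4119 and 1536 in MICs and at 1672, 1772 and 1660 in non-MICs. The non-MIC libraries lay close together, while MIC replicate 2 was far above and MIC replicate 3 below all of them. The difference was 0.52 ± 0.35 (SE), and 0.15 without MIC replicate 2 and 0.86 without MIC replicate 3, with an unadjusted p of 0.174, of 0.033 with the block and of 0.0081 in edgeR with the block (adjusted p = 0.188). Timm8b shares 16% of its exon bases with Nkapd1 on the opposite strand.

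Timm8a1, the ortholog of the gene mutated in a human deafness and dystonia syndrome, was at 159, 156 and 131 in MICs and at 98.4, 107 and 107 in non-MICs. Here the groups did not overlap, which was the case with MICs on top for 2 of 36 members, this one and Timm17a, and for 2.69% of all genes. With 93 to 153 reads in the non-MIC libraries, counting error (0.14 on the log2 scale) exceeded their SD of 0.07. The difference was 0.50 ± 0.35 (SE), and with an unadjusted p of 0.192, and of 0.0832 with the block, Timm8a1 did not pass. Timm8a2 was at 0 to 2 reads in each library, which is too few for a fold change. Timm10, which with Timm9 forms the chaperone of carrier proteins, was higher in all 3 pairs, by 0.54, 0.68 and 0.03 (mean 0.42 ± 0.27 SE, unadjusted p = 0.0444 with the block). Its partner Timm9 was higher by 0.28 and Timm10b, a peripheral part of the TIM22 complex, by 0.40, and both were lower in MICs in pair 3. Timm13 had a difference of 0.12 and was low in both libraries numbered 3, at 1514 in MICs and 1377 in non-MICs, while the other 4 libraries were between 3117 and 4377.

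The carrier translocase was close to level. Timm22, its channel, was at 1470, 1078 and 1310 in MICs and at 1030, 1057 and 1322 in non-MICs, so that only pair 1 differed, and the fold change was 0.18 ± 0.23 (SE) on the log2 scale. Timm29, an accessory subunit, differed by -0.07 ± 0.24 (SE), a sign that turned under quantile normalization.

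The presequence translocase TIM23 had a median log2 fold change of 0.41 over 5 genes. In pairs 1 and 3 all 5 were higher in MICs, by 0.15 or less in pair 3, and in pair 2 Timm17b and Timm50 were lower. Timm17a, which lines the channel together with Timm23, was at 6110, 6134 and 4775 in MICs and at 4052, 4284 and 4306 in non-MICs. All MIC libraries were above all non-MIC libraries. The difference was 0.42 ± 0.19 (SE), a fold of 1.34, with the smallest p among the higher members, 0.0574 without and 0.0256 with the block (adjusted p = 0.423). Its paralogue Timm17b was at 1061, 822 and 658 in MICs and at 850, 898 and 607 in non-MICs, with overlapping groups and a difference of 0.10 ± 0.28 (SE). Whether the paralogues differ in their response was not tested.

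Timm23, the other channel subunit, was at 1294, 1238 and 692 in MICs and at 916, 819 and 630 in non-MICs. Within the pairs the MIC value exceeded the other by 0.50, 0.60 and 0.14, although the libraries numbered 3 were the lowest of both groups, so that the groups overlapped. The difference was 0.41 ± 0.31 (SE), with an unadjusted p of 0.227 and of 0.0381 with the block. Of 5 near-identical copies of Timm23, Gm16209 was in the table, with a highest value of 2.16, and 4 were not, among them Gm10273 with 99.9% identity over 96% of the transcript, and reads from such copies cannot be told apart from those of Timm23. Timm21, which couples the TIM23 complex to TOM and to the respiratory chain, was at 679, 898 and 706 in MICs and at 512, 412 and 703 in non-MICs, a difference of 0.51 ± 0.28 (SE) carried by pairs 1 and 2 (unadjusted p = 0.0369 with the block). Timm50, the receptor of the complex for presequences, was at 3248, 1597 and 2351 in MICs and at 2983, 2491 and 2316 in non-MICs. Its difference of -0.17 ± 0.29 (SE) came from MIC replicate 2 and was 0.10 without it.

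**Figure D3:**
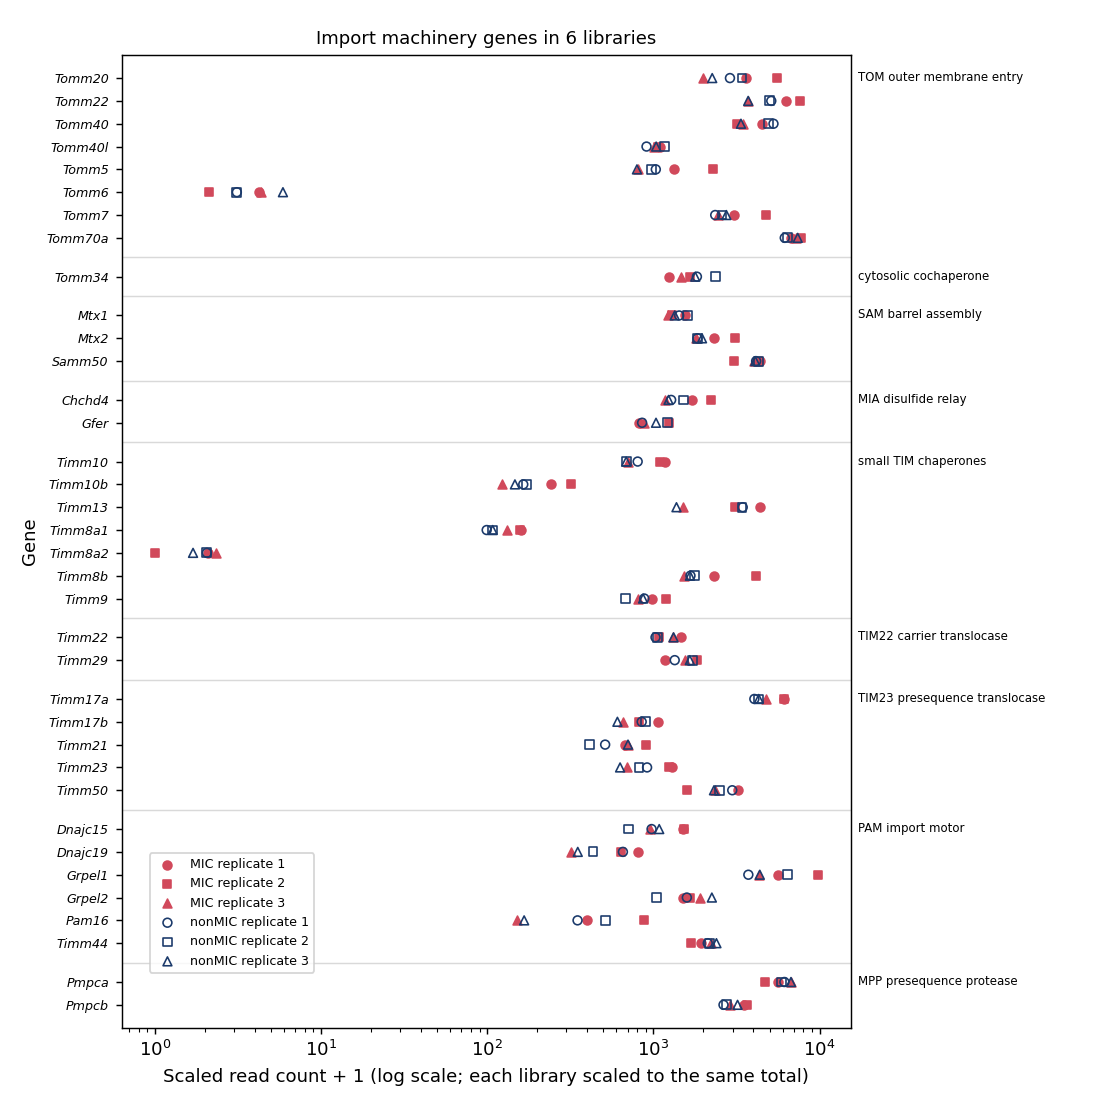
Scaled read counts plus 1 (log axis) of the 36 import genes in the 3 MIC libraries (filled) and the 3 non-MIC libraries (open), grouped by machine, with 1 marker shape for each replicate number. Tomm6 and Timm8a2 lie near the floor, and the libraries numbered 3 (triangles) are the lowest of both groups for genes such as Pam16, Timm13 and Timm23.

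In the import motor, MICs had more of both J protein transcripts in pairs 1 and 2 and less in pair 3. Dnajc15, a J protein that has been linked to respiratory chain activity, was at 1509, 1539 and 956 in MICs and at 975, 708 and 1084 in non-MICs. Pairs 1 and 2 differed by 0.63 and 1.12 and pair 3 by -0.18, with a mean of 0.52 ± 0.28 (SE). Its unadjusted p was 0.106, 0.0355 with the block and 0.0081 in edgeR with the block (adjusted p = 0.188). Dnajc19, the J protein paralogue whose human ortholog is mutated in a form of cardiomyopathy with ataxia, was at 808, 635 and 318 in MICs and at 655, 433 and 350 in non-MICs, and the difference was 0.24 ± 0.42 (SE). Whether the difference was larger for Dnajc15 than for Dnajc19 was not tested.

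Grpel1, the nucleotide exchange factor that resets the motor Hsp70, was at 5625, 9748 and 4332 in MICs and at 3729, 6424 and 4369 in non-MICs. It was higher by 0.59 and 0.60 in pairs 1 and 2 and nearly equal in pair 3, with a mean of 0.39 ± 0.34 (SE) and an unadjusted p of 0.0447 with the block, which was 0.0534 in edgeR. The difference was 0.07 without MIC replicate 2, 0.65 without MIC replicate 3, 0.23 without non-MIC replicate 1 and 0.62 without non-MIC replicate 2. Its paralogue Grpel2 was at 1506, 1668 and 1921 in MICs and at 1590, 1038 and 2249 in non-MICs. The sign of its difference, 0.13 ± 0.30 (SE), rested on pair 2 and was -0.15 without that pair in the blocked fit. Timm44, which tethers the motor to the channel, was at 1928, 1680 and 2211 in MICs and at 2124, 2179 and 2396 in non-MICs, lower in each pair by small amounts (-0.21 ± 0.20 SE, unadjusted p = 0.214 with the block). Pam16, the J-like protein that restrains the motor, differed by 0.27 ± 0.68 (SE) and was between 151 and 874. It has a copy in the table, Gm9803, with a highest value of 17.8.

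The subunits of the processing peptidase diverged in pairs 1 and 2. Pmpca, the subunit that binds the presequence, was at 5605, 4687 and 6692 in MICs and at 6145, 5930 and 6731 in non-MICs, lower in each pair (mean -0.16 ± 0.20 SE). Pmpcb, the catalytic subunit, was at 3489, 3646 and 2894 in MICs and at 2643, 2740 and 3211 in non-MICs, a difference of 0.22 ± 0.19 (SE) with a reversed sign in pair 3. Neither had an unadjusted p under 0.05, with the block 0.345 for Pmpca and 0.223 for Pmpcb. Their levels per transcript length were alike, at 54.4 and 54.9 RPKM.

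Differences by replicate number were larger than those between the populations for some members. In 11 of 36 members, both libraries numbered 3 were below all 4 others, compared to 16.3% of all genes, and in 4 of 36 both were above, compared to 17.8%. The mean of log2(scaled read count + 1) in the libraries numbered 3 minus that in the others was -1.65 for Pam16, -1.30 for Timm13, -0.89 for Dnajc19 and -0.82 for Tomm20, and 0.54 for Grpel2.

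Pair differences varied with transcript length in pairs 1 and 2. Among 10861 protein-coding genes with a mean value above the median of the table, the correlation (Spearman's rho, across genes, which are not independent) between the pair difference and the length of the principal transcript was -0.43, -0.16 and 0.04 for pairs 1, 2 and 3. Among the 34 members with 10 or more reads in a library it was -0.01, -0.18 and -0.14. For the 6 of these members with a transcript under 1000 bases, the median pair differences were 0.34, 0.78 and -0.11, and for 554 protein-coding genes of that length, members included, they were 0.39, 0.43 and -0.06. For the 28 members with transcripts of 1000 bases or more, the medians were 0.32, 0.34 and -0.05, compared to -0.12, -0.07 and -0.05 for 10307 protein-coding genes. The part of transcript length in the results was not tested.

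**Figure D4:**
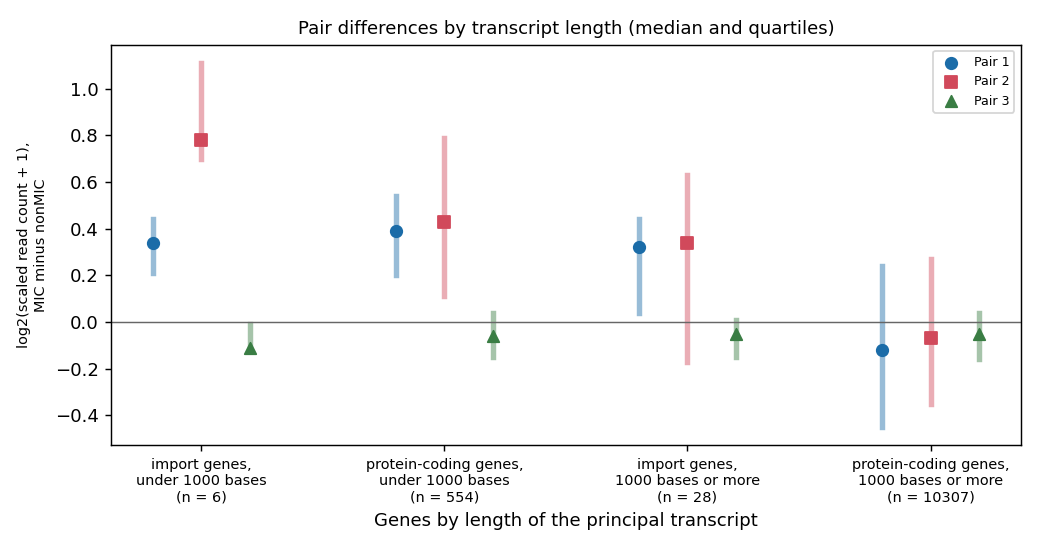
Median (points) and quartiles (bars) of the pair differences, MIC minus non-MIC, in log2(scaled read count + 1), for import genes and for protein-coding genes, split at a principal transcript length of 1000 bases. Short genes of both kinds are above 0 in pairs 1 and 2; among longer genes the medians of the import genes are above 0 and those of all protein-coding genes below it, and pair 3 is near 0 throughout.

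Of 15 further import and processing genes, 2 were higher and 0 lower in MICs at an unadjusted p under 0.05 with the block, compared to 5.24% and 5.97% of all genes. A log2 fold change above 0 was seen for 6 of the 15, compared to 45.8% of all genes, and the median was -0.10. The 2 were Hspe1, the cofactor of the matrix chaperonin, at 4829, 7068 and 3316 in MICs and at 3133, 2692 and 3479 in non-MICs, and Immp1l, an inner membrane peptidase, with a difference of 0.68 (unadjusted p = 0.0139 for Hspe1 and unadjusted p = 0.0323 for Immp1l, both with the block). Mtch2, an outer membrane insertase, came next, with 0.36 (unadjusted p = 0.0628 with the block). Hspa9, the Hsp70 of the motor, and Hspd1, the chaperonin that Hspe1 serves, both differed by -0.18. Of 17 substrates of the disulfide relay with twin CX9C motifs, 4 were higher and 0 lower at an unadjusted p under 0.05 with the block, 15 had a log2 fold change above 0 and the median was 0.31. Of the 17, 8 have a principal transcript under 1000 bases, as have Hspe1 and Immp1l. Among the 554 protein-coding genes of that length considered before, 19.5% were higher in MICs at an unadjusted p under 0.05 with the block and 83% had a log2 fold change above 0. The smallest p-values were those of Uqcrh, a hinge subunit of complex III (difference 0.52, unadjusted p = 0.0194), and of Coa6 and Coa4, assembly factors of complex IV (each 0.58, with an unadjusted p of 0.0365 and of 0.0424). None of these 32 genes passed adjustment, and without the block 0 of them had an unadjusted p under 0.05 in limma and 1 in edgeR.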

How the data were processed

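RNA of 3 MIC and 3 non-MIC libraries was made into stranded poly(A) libraries. The authors counted reads per gene on GRCm38 (mm10); the submitters' processing notes name STAR and HTSeq, the paper's methods name Bowtie2, and versions and the strand setting of the counting are not given in the sources used here. The deposited signal is read counts scaled by the authors to the same total in each library and filtered to genes expressed in at least 3 of the 6 libraries. Dividing by the value of 1 read gave whole reads, within 0.01, for 99.97% to 100.0% of the values of a library. Of 22310 identifiers, 22161 had a symbol.

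The test was that of limma (version 3.58.1, under R 4.3.3) on log2(value + 1) (lmFit, eBayes with trend, no block, because the paper ranks genes by an unpaired measure), with Benjamini-Hochberg adjustment over all genes. A fold change on this scale understates the change of low genes. The replicate number, edgeR 4.0.16 and DESeq2 1.42.0 on the recovered reads and other settings were alternatives. Both populations share the numbers in the labels. Same-numbered libraries departed from their group means together (correlations 0.791, 0.849 and 0.889 over 11155 genes), so that blocked values are printed. Correlations of unlike numbers were between -0.678 and -0.199. Departures cancel within a group, which by itself tends to make these negative once those of like numbers are positive. The fits were also run on simulated counts with known changes larger than those seen for the members. How often the fits err on these genes was not tested. Copies were searched among annotated transcripts (95% identity over 50% of the member). Levels per length use the principal transcript of each gene.

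Members and lists were chosen with earlier results of these data known. Named with each library's value were the 5 higher and 5 lower members with the smallest blocked p, the paralogue groups and the central member of each machine, and the 3 genes with the smallest blocked p of each further list were named. Hspa9 and Hspd1 were added after their values were seen. Tools were pandas 2.3.3, numpy 2.4.6 and scipy 1.17.1.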

Additional observations from a re-analysis of the deposited data

How the results depend on the processing

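Over 22 alternatives to the fit without a block, the number of members with an adjusted p under 0.05 stayed 0, and the median log2 fold change of the members stayed above 0, between 0.10 and 0.46. The number with an unadjusted p under 0.05, 0 at first, was 9 with the replicate block, 8 with the block and edgeR, 9 with the block and DESeq2, 8 with the block and TMM rescaling, 9 with the block and quantile normalization (the last pair chosen after seeing the data), and 1, 0 and 9 with the block and without pair 1, 2 or 3. Without the block it was 1 with DESeq2, a filter on low values, a pseudocount of 10 or quantile normalization, and between 0 and 7 when single libraries were left out (7 without MIC replicate 3).

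For the other import and processing genes, 0 at first, it was 1 with DESeq2, edgeR, TMM rescaling or quantile normalization, 2 with the replicate block, also with edgeR or TMM, 3 with the block and DESeq2, 4 with the block and quantile normalization, 1, 1 and 3 with the block and without pair 1, 2 or 3, and between 0 and 3 without single libraries. For the twin CX9C substrates, 0 at first, it was 1 with DESeq2, 4 with the replicate block, also with TMM, 5 with the block and edgeR or quantile normalization, 6 with the block and DESeq2, 0, 0 and 6 with the block and without pair 1, 2 or 3, and between 0 and 6 without single libraries. The cause was not tested.

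Of 34 members, 11 changed the sign of their log2 fold change when 1 library was left out, over the ranges -0.04 to 0.63 (Dnajc19), -0.27 to 0.04 (Gfer), -0.16 to 0.40 (Grpel2), -0.34 to 0.92 (Pam16), -0.26 to 0.00 (Samm50), -0.32 to 0.54 (Timm13), -0.07 to 0.27 (Timm17b), -0.21 to 0.11 (Timm29), -0.41 to 0.10 (Timm50), -0.07 to 0.67 (Tomm20) and -0.06 to 0.12 (Tomm40l). With the replicate block, the sign turned without pair 2 for Grpel2 (-0.15), Samm50 (0.02) and Timm50 (0.07), and without pair 1 for Timm17b (-0.01) and Tomm40l (-0.09), and Timm29 was at 0.00 under quantile normalization with or without the block. Counting error was at or above the spread of a population for Tomm6, Timm8a2 and Timm8a1.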

Other observations

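2 short transcripts that are not among the 36 genes were at very different levels in the libraries numbered 3 of both populations. Ndufs5, a complex I subunit with twin CX9C motifs, was at 4.73 in MIC replicate 3 and 2.81 in non-MIC replicate 3, and between 546 and 808 in the other 4 libraries. Romo1, a small inner membrane protein of the TIM23 complex and one of the 15 further import genes, was at 327 and 299 in these libraries and between 2195 and 3888 in the others. These genes were singled out after their values were seen.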
